A study of Drosophila melanogaster with 382 samples.

Results

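The genes that encode the proteasome were followed through the blastoderm stages of the Drosophila melanogaster embryo. All rows of the deposited gene table whose symbol names a Pros, Rpn or Rpt subunit were taken, which gave 47 of the 13587 named genes. Of these, 32 encode the standard subunits (7 of the alpha ring, 7 of the beta ring, 6 Rpt ATPases and 12 Rpn subunits) and 15 are paralogs marked T or R in their symbols. The genes pros and Prosap share only the letters of the name and were left out.

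The proteasome is the protease that degrades proteins tagged with ubiquitin. Its 20S core is a barrel of alpha and beta rings, with the proteolytic sites on 3 of the beta subunits. The 19S cap binds the ubiquitin chain, removes it and threads the substrate into the core. In the cap, Rpt subunits form a ring of ATPases, Rpn1, Rpn2, Rpn10 and Rpn13 belong to the base beside them, and the remaining Rpn subunits, among them the deubiquitinase Rpn11, form the lid. The mother loads the egg with mRNA for both parts before the embryo's own genome becomes active.

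Single embryos were fixed in methanol, cut across the anteroposterior axis, and mRNA was sequenced from every slice. The 25 embryos comprised 7 wild type (Canton-S) and 7 zld embryos, prepared with TruSeq, and 4 bcd RNAi, 4 2.4x bcd and 3 hb RNAi embryos, prepared with SMARTseq2. Wild type had a single embryo per stage, at cycles 11 and 13 and at 5 points of cycle 14, named 14A to 14E. The zld set had 3 embryos at cycle 13 and 1 at each of cycles 11, 14A, 14B and 14D, and every SMARTseq2 line was sampled at cycles 13 and 14D, in duplicate except for the single hb RNAi embryo of cycle 13. The zld embryos came from mothers with a zld mutant germline and carried a histone RFP marker, so they lacked maternal Zelda, the activator of early zygotic genes. In the RNAi lines a maternal Gal4 drove a hairpin against bcd or hb, and the 2.4x bcd line carried eGFP-Bcd. TruSeq libraries contained yeast carrier RNA and SMARTseq2 libraries did not. No wild type embryo was prepared with SMARTseq2, so the effects of kit, carrier, slice width and line cannot be told apart between the 2 sets. Per the paper, the wild type reads came from an earlier study by the same authors and were mapped again. Study therefore cannot be told apart from line in any comparison with wild type, that of zld included. Mothers of the RNAi embryos were also older than those of the zld and 2.4x bcd embryos, and maternal age cannot be told apart from the line in any comparison of the RNAi lines with these.

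Levels are FPKM, fragments per kilobase of transcript scaled to the sequenced total, averaged over the slices of an embryo, and the embryo is the replicate. The depth of a slice, estimated from the smallest steps of the values, had a median of 911525 fragments in wild type, 2701548 in zld and 2882034 to 4977182 in the SMARTseq2 lines. The targeted gene vfl, which encodes Zelda, was at 0 to 0.645 FPKM in 6 zld embryos, but the zld embryo of cycle 14B had 5.01 FPKM against 2.302 to 10.2 FPKM in wild type. In the SMARTseq2 lines at cycle 13, bcd was at 6.31 and 9.72 FPKM in bcd RNAi and 132 and 156 FPKM in 2.4x bcd. At cycle 14D it was at 0.928 and 1.84 FPKM against 4.21 and 11.3 FPKM, so the lines did not overlap at either cycle. The gene hb was at 4.55 FPKM in the hb RNAi embryo of cycle 13, against 19.1 to 49.8 FPKM in the bcd lines. At cycle 14D the ranges of hb overlapped, with 19.2 and 29.9 FPKM in hb RNAi and 20.1 to 48.4 FPKM in the bcd lines. In FPKM, the zld embryo of cycle 13, replicate 3, stood apart with the lowest levels of most 20S genes. It also had the lowest summed FPKM of all genes, 423481. In kallisto TPM, a second quantification of the same reads, it was not low: its alpha and beta ring medians were 438 and 481. Replicate 1 had 478 and 484, and replicate 2 had 373 and 390. The single hb RNAi embryo of cycle 13 stood apart with the highest summed FPKM of all genes, 824634. Its alpha and beta ring medians, 917 and 996 FPKM, were above those of both hb RNAi embryos of cycle 14D. In kallisto TPM its medians were 192 and 210, below their 377 and 404 for alpha and 583 and 571 for beta. The stage differences within hb RNAi rest on this embryo. Within a slice, fewer cells with an mRNA and less mRNA per cell cannot be told apart. Follicle cell markers summed to at most 11.6 FPKM, and testis markers to at most 1.95 FPKM.

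The core and the cap parted during the blastoderm stages. In wild type, the median over 13 20S genes was 580 FPKM at cycle 11, 786 FPKM at cycle 13, 1056 FPKM at cycle 14A, 1127 FPKM at cycle 14D and 671 FPKM at cycle 14E. Over the 18 19S genes it was 225 FPKM at cycle 11, 86.5 FPKM at cycle 13, 46.5 FPKM at cycle 14A, 65.1 FPKM at cycle 14D and 46.3 FPKM at cycle 14E. The core median therefore stood 2.58 times above the cap median at cycle 11, 9.10 times at cycle 13 and 22.7 times at cycle 14A, and 14.5 to 20.9 times from cycle 14B to 14E. The same ratio from the kallisto TPM values, a second quantification of the same reads, was 2.64 at cycle 11 and 22.9 at cycle 14A. Each wild type stage is 1 embryo, so these steps have no replicate check of their own.

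**Figure D1:**
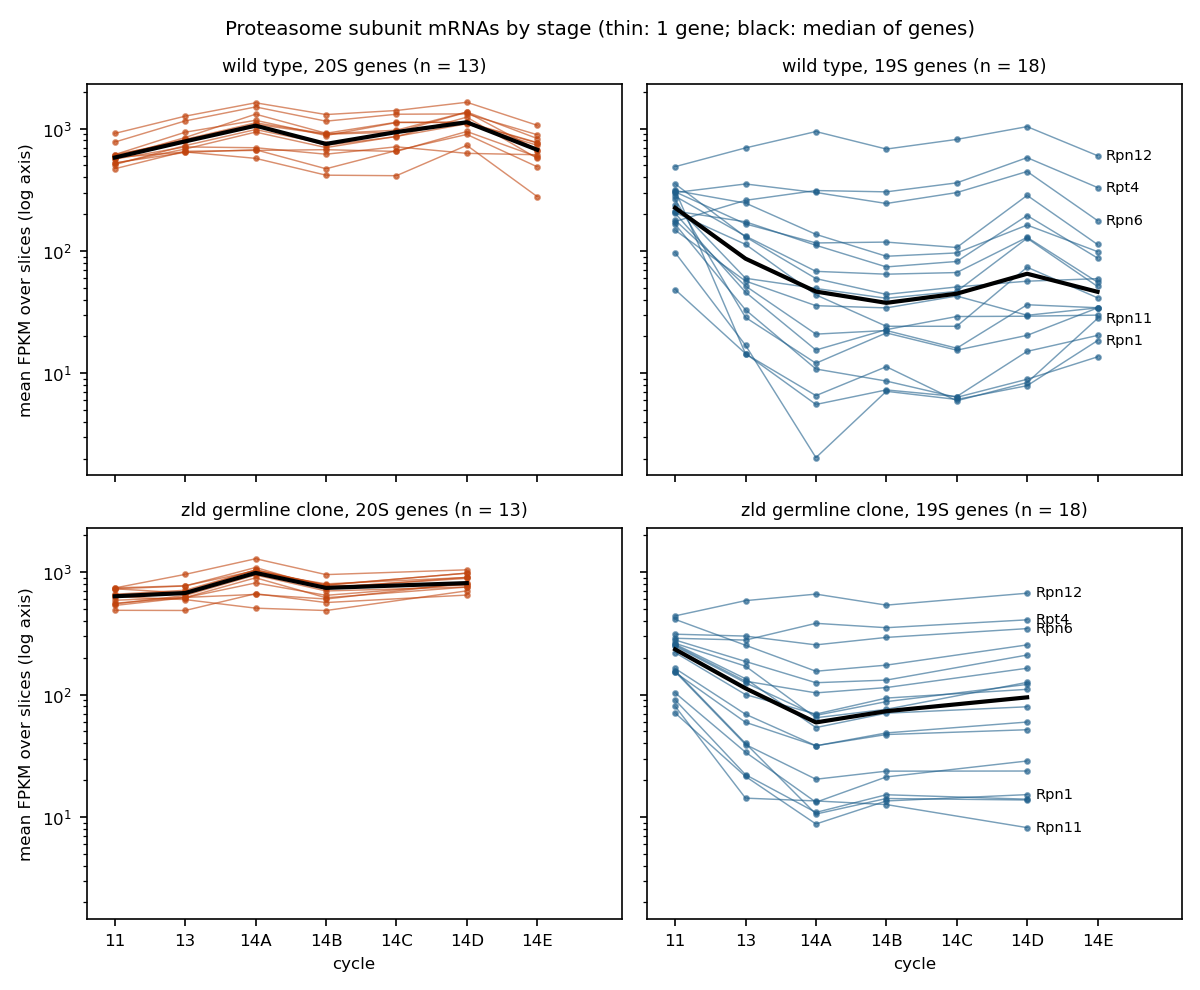
Mean FPKM over slices (log axis) against cycle in wild type and zld embryos, for 13 genes of the 20S core and 18 genes of the 19S cap. Thin lines are single genes, the black line is the median of genes, and the 3 zld embryos of cycle 13 are averaged. The wild type 20S median lies between 580 and 1127 FPKM, whereas the 19S median drops from 225 FPKM at cycle 11 to 37.6 FPKM at cycle 14B.

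The zld embryos started near the same ratio, 2.72 at cycle 11, and reached 16.7 at cycle 14A, 10.2 at cycle 14B and 8.59 at cycle 14D. Their 3 embryos of cycle 13 gave 4.28, 5.73 and 9.49, a spread that includes the wild type value of that cycle. In that order these were replicates 3, 1 and 2, with values for 5 of 7, 3 of 8 and 4 of 6 slices. Replicate 1 had no values for its anterior end, 1 of 3 equal parts of the length. The part of the missing slices in this spread was not tested. In the SMARTseq2 lines the ratio at cycle 13 was 5.09 and 6.42 for bcd RNAi, 2.97 and 3.05 for 2.4x bcd and 3.98 for hb RNAi. At cycle 14D it was 5.58 and 9.62 for bcd RNAi, 5.52 and 6.42 for 2.4x bcd and 6.06 and 10.01 for hb RNAi. Thus the ratio was above its cycle 13 range in both cycle 14D embryos of 2.4x bcd and of hb RNAi, but the stages overlapped in bcd RNAi. The SMARTseq2 values were below the single wild type embryo of the same cycle, at 9.10 for cycle 13 and 17.3 for cycle 14D. The zld embryo of cycle 14D, prepared with TruSeq like wild type, lay within the SMARTseq2 range of that cycle.

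**Figure D2:**
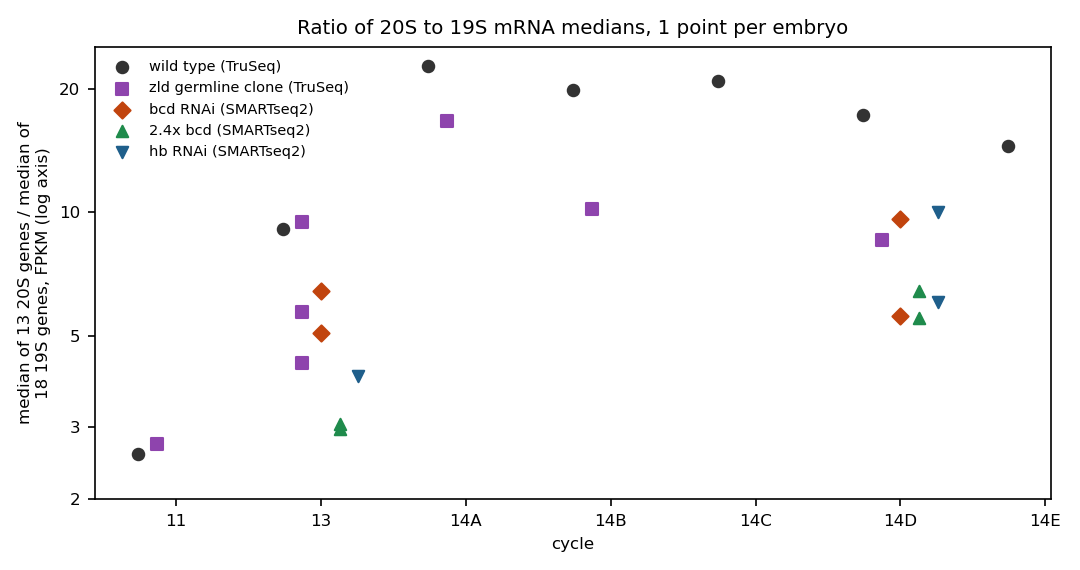
Ratio of the 20S median to the 19S median in FPKM (log axis) against cycle, 1 point per embryo for 25 embryos of 5 lines. The wild type points rise from 2.58 at cycle 11 to 22.7 at cycle 14A, and the SMARTseq2 points lie between 2.97 and 10.01.

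The 20S genes were close to one another in level and in course. Over the 25 embryos, their median levels ranged from 557 FPKM for Prosbeta2 to 1136 FPKM for Prosbeta4, and the highest embryo of a gene was 3.01 to 5.53 times its lowest. The 19S genes were spread more widely, from a median of 18.5 FPKM for Rpn1 to 674 FPKM for Rpn12, and their embryos differed by 2.52 times for Rpn6 up to 52.8 times for Rpn11. FPKM is scaled by length, but these medians pool both kits, between which genes differed by unequal amounts, so the order of the genes depends on that mix.

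Of the alpha subunits, which gate the barrel, Prosalpha5 was the highest and Prosalpha3 the lowest. Prosalpha5 in wild type was 776 FPKM at cycle 11, 1156 at cycle 13, 1503 at cycle 14A, 1150 at cycle 14B, 1310 at cycle 14C, 1319 at cycle 14D and 891 at cycle 14E. Prosalpha3 in the same order was 580, 644, 571, 416, 412, 730 and 278 FPKM. At cycle 14E it was 0.479 times its cycle 11 level, the lowest such value among the 13 core genes, while 10 of the 13 were above their cycle 11 level. The share of all genes above that level was not computed.

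The 3 proteolytic subunits are Prosbeta1 (caspase-like site), Prosbeta2 (trypsin-like) and Prosbeta5 (chymotrypsin-like). In wild type from cycle 11 to 14E, Prosbeta1 was 578, 845, 1312, 916, 1127, 1116 and 762 FPKM. Prosbeta2 was 525, 639, 672, 470, 662, 896 and 487 FPKM. Prosbeta5 was 470, 653, 663, 672, 651, 947 and 588 FPKM. All 3 were above their cycle 11 level at cycle 14D, by 1.93 times for Prosbeta1, 1.71 times for Prosbeta2 and 2.02 times for Prosbeta5. Prosbeta4, the highest core gene and not proteolytic, went from 913 FPKM at cycle 11 to 1641 FPKM at cycle 14D and 1064 FPKM at cycle 14E. In all, 13 of 13 core genes were higher at cycle 14D than at cycle 11 in the wild type pair of embryos, and 13 of 13 in the zld pair.

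Prosalpha1 could not be read from these values. It is listed at 0 FPKM in all 338 slices, as is CG30382, now named Prosalpha1R, which lies 1734 bases from it on chromosome 2R. In kallisto, CG30382 held 262 to 2624 TPM (median 451) and Prosalpha1 0 to 101 TPM (median 20.2). Both were highest in the 2.4x bcd embryos, at 1624 to 2624 TPM and 74.7 to 101 TPM. The other lines reached at most 938 and 57.6 TPM. Prosalpha1 (FBgn0263121) spans 7827303 to 7828678 and CG30382 7830413 to 7831771 on release 6 of the genome. The values of both are uncertain, since a counting method can split or drop reads shared by such copies, and Prosalpha1 is outside the 20S medians.

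Among the ATPases of the cap, Rpt4 moved apart from the other 5. Rpt4 in wild type went from 174 FPKM at cycle 11 to 259 at cycle 13, 312 at cycle 14A, 304 at cycle 14B, 360 at cycle 14C and 579 at cycle 14D, and was 330 FPKM at cycle 14E. Rpt5, the lowest ATPase gene, was 203 FPKM at cycle 11, 46.0 at cycle 13, 15.5 at cycle 14A and 29.9 at cycle 14E. Rpt3 was 280 FPKM at cycle 11 and 129 FPKM at cycle 14D, and Rpt6 was 311 and 163 FPKM. A ring built of equal numbers of each ATPase was thus encoded by mRNAs that differed at wild type cycle 14D by 29.3 FPKM for Rpt5 against 579 FPKM for Rpt4.

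Several lid and base genes, Rpn11, Rpn8 and Rpn1 among them, had low levels and steep courses, whereas Rpn12 and Rpn6 did not. Rpn11, the deubiquitinase of the lid, was 315 FPKM in wild type at cycle 11 and then 14.4, 6.57, 11.3, 5.96, 8.39 and 28.0 FPKM at the later stages. Rpn8, its lid partner, was 165, 33.0, 10.8, 8.64, 6.36, 8.94 and 13.6 FPKM. Rpn1, a scaffold of the base, was 96.9, 16.9, 2.04, 7.12, 6.11, 7.92 and 18.5 FPKM. For these 3 genes every later embryo was below the cycle 11 embryo, by 37.5 times for Rpn11, 18.5 times for Rpn8 and 12.2 times for Rpn1 at cycle 14D.

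The ubiquitin receptors differed from each other. Rpn10 in wild type was 238 FPKM at cycle 11, 59.8 at cycle 13, 49.3 at cycle 14A, 41.0 at cycle 14B, 46.7 at cycle 14C, 127 at cycle 14D and 51.3 at cycle 14E. Rpn13 in the same order was 148, 56.7, 35.7, 34.2, 42.8, 29.8 and 34.3 FPKM, with no second peak at cycle 14D. Rpn12, a lid subunit, behaved like the core genes: it was 489, 695, 946, 680, 816, 1038 and 601 FPKM, and in wild type at each of cycles 11 to 14D it was the one 19S gene above the lowest 20S gene.

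The test of stage in TruSeq compared cycle 14D with cycle 13 over wild type and zld together (limma over 14 embryos and 7 stages, Benjamini-Hochberg adjustment over all genes). Only Rpn8 was called, lower by 1.60 on the log2(FPKM + 1) scale (SE 0.30, adjusted p = 0.0119). Members called lower were 1 of 32 tested, against 8.59% of all genes, and 0 were called higher, against 0.665% of all genes. At an unadjusted p under 0.05, 2 members were higher and 3 lower. The share of all genes at that threshold was not computed, so nothing is read from these counts. Without the wild type embryo of cycle 14D the Rpn8 call was lost (adjusted p = 0.238), and with kallisto TPM no member was called.

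A wider contrast, cycles 14D and 14E minus cycles 11 and 13 in the same fit, called 13 members. In this contrast 11 were lower, where 33.4% of all genes were lower, and 2 were higher, where 11.5% of all genes were higher. The members tested were those of the test above, so the share called lower was near that of all genes. Nothing particular to the members as a whole is read from that count. All 11 were cap genes: Rpn1, Rpn3, Rpn5, Rpn7, Rpn8, Rpn9, Rpn11, Rpn13, Rpt3, Rpt5 and Rpt6. The largest difference was that of Rpn8 (-2.47, SE 0.27, adjusted p = 8.43e-05), followed by Rpn11 (-1.65, SE 0.42, adjusted p = 0.0085). Rpt4 (0.76, SE 0.26, adjusted p = 0.0347) and the paralog Rpt3R (0.83, SE 0.32, adjusted p = 0.0499) were higher. No core gene was called in either direction in this contrast. Cycle 14E is 1 embryo, so variation between embryos of that stage is not measured in it.

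In the SMARTseq2 lines the same stage comparison (limma over 11 embryos, with line as a term) called 16 of 33 members tested. Of these, 13 were lower at cycle 14D, a share near the 36.2% of all genes that were lower. The other 3 were higher, where 33.2% of all genes were higher. The cap held 10 of the 13 lower genes, and its 18 genes had a median log2 difference of -0.71. The 13 core genes had 3 lower, all of the alpha ring, and a median of -0.39, and the median of all genes tested was -0.10.

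Among the cap genes the ATPase gene Rpt1 had the smallest adjusted p and the ATPase gene Rpt3 the largest fall. Rpt1 was 356 and 398 FPKM in bcd RNAi at cycle 13 and 152 and 175 FPKM at cycle 14D, 274 and 266 against 101 and 104 FPKM in 2.4x bcd, and 268 against 86.3 and 89.8 FPKM in hb RNAi. The stages did not overlap in any line, and Rpt1 fell by 1.37 (SE 0.17, adjusted p = 1.21e-05). Rpt3 fell by 1.497 (SE 0.28, adjusted p = 0.000443) and Rpt6 by 1.24 (SE 0.18, adjusted p = 6.83e-05). Among lid genes Rpn5 fell by 1.31 (SE 0.21, adjusted p = 0.000146).

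In the core, Prosalpha3 was 1417 and 1539 FPKM in bcd RNAi at cycle 13 and 496 and 600 FPKM at cycle 14D. It was 1382 and 1244 against 720 and 596 FPKM in 2.4x bcd, and 1439 against 380 and 513 FPKM in hb RNAi. Every cycle 13 embryo exceeded every cycle 14D embryo, and the gene fell by 1.34 (SE 0.18, adjusted p = 2.49e-05). The proteolytic genes did not pass the test: Prosbeta1 -0.41 (SE 0.20, adjusted p = 0.0819), Prosbeta2 -0.39 (SE 0.19, adjusted p = 0.0802) and Prosbeta5 -0.09 (SE 0.15, adjusted p = 0.629).

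Rpt4 rose in these lines also, by 0.76 (SE 0.19, adjusted p = 0.00329). It was 401 and 433 FPKM in bcd RNAi at cycle 13 and 703 and 626 FPKM at cycle 14D, 167 and 185 against 216 and 293 FPKM in 2.4x bcd, and 183 against 525 and 376 FPKM in hb RNAi. Within each line the later embryos were the higher, but the lines overlapped. The paralog Rpt3R was another higher gene. The count of 3 also holds the paralog Prosbeta2R2, which passed the filter on low values only through its cycle 14D embryos, so nothing is read from its call.

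Rpn10, Rpn13 and Rpt2 were called lower on weaker grounds: Rpn10 lost its call without any 1 of 6 embryos, Rpn13 of 4 and Rpt2 of 6, with adjusted p up to 0.125, 0.0583 and 0.0782. All 3 were lost without replicate 2 of bcd RNAi at cycle 13 and without either 2.4x bcd embryo of cycle 13. Rpn10 and Rpt2 were lost without replicate 2 of bcd RNAi or replicate 1 of 2.4x bcd at cycle 14D, Rpn13 and Rpt2 without replicate 2 of 2.4x bcd at cycle 14D, and Rpn10 without the hb RNAi embryo of cycle 13. With kallisto TPM, where the median of all genes moved to 0.28, only 2 members were lower and 5 higher, with no share of all genes computed. With those TPM values rescaled by median-ratio size factors, 10 were lower, with 32.2% of all genes, and 3 higher, with 35.1% of all genes, and 11 of the 16 calls were kept.

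**Figure D3:**
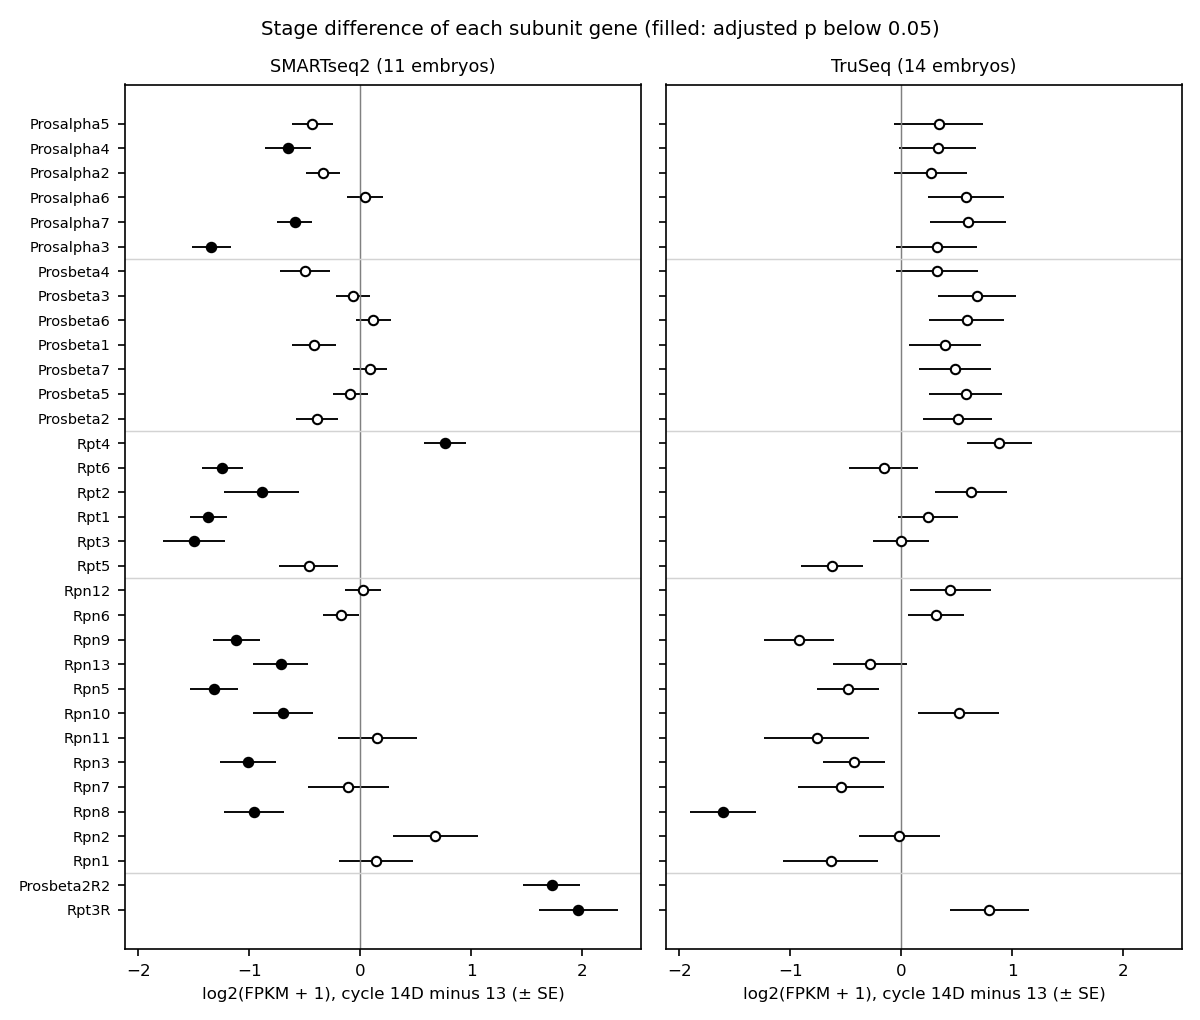
Difference of log2(FPKM + 1) between cycles 14D and 13 (± SE) for each standard subunit gene and 2 paralogs, in the SMARTseq2 and TruSeq embryos, with genes on the vertical axis in the order alpha ring, beta ring, Rpt, Rpn and paralogs. Filled points passed adjusted p below 0.05: 16 members in SMARTseq2, of which 13 lie left of 0, and Rpn8 alone in TruSeq.

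The stage differences of the 2 kits were set against each other in 1 model of the 17 embryos of cycles 13 and 14D. Here 4 of 33 members were called lower in SMARTseq2 relative to TruSeq, with 7.74% of all genes lower, and 1 higher, with 8.69% of all genes higher. Prosalpha3 (-1.70, SE 0.43, adjusted p = 0.0104), Rpt1 (-1.60, SE 0.41, adjusted p = 0.0113), Rpt3 and Prosalpha7 were the lower genes, and Prosbeta2R2 was the higher one. Prosbeta2R2 passed the filter only through its SMARTseq2 embryos of cycle 14D and lost its call with pseudocounts of 0.1 (adjusted p = 0.0653) and 5 (adjusted p = 0.0716), and nothing is read from it. All 13 core genes had a negative difference, with a median of -0.90 against 0.14 for all genes. With the wild type embryo of cycle 14E in place of that of 14D, or with kallisto TPM, none of the 5 was called. Leaving out the wild type embryo of cycle 14D ended 4 of the 5 calls, all but that of Rpt1 (Prosalpha3, adjusted p = 0.0505), and leaving out the zld embryo of cycle 14D ended 4, all but that of Prosalpha3 (Rpt1, adjusted p = 0.0615). Over all embryos left out in turn, Prosalpha7 lost its call in 9 of 17 fits, Rpt3 in 10 of 17 and Prosbeta2R2 in 6 of 15.

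Between the kits themselves, 11 of 18 cap genes were higher in SMARTseq2 and 0 lower, whereas of the 13 core genes 2 were higher and 1 lower. Over all members, 13 were higher, a share near the 36.5% of all genes that were higher, and 2 lower, where 17.2% of all genes were lower. Nothing particular to the members as a whole is read from the higher count. Rpn11 showed the largest difference, 3.38 (SE 0.27, adjusted p = 5.16e-08). At cycles 13 and 14D it ranged from 72.7 to 259 FPKM (median 117) in the 11 SMARTseq2 embryos and from 8.18 to 15.1 FPKM (median 13.8) in the 6 TruSeq embryos, with no overlap. Rpn7 (1.87, SE 0.34, adjusted p = 0.000171), Rpt3 (1.15, SE 0.25, adjusted p = 0.000769) and Rpt5 (1.05, SE 0.23, adjusted p = 0.000824) followed by adjusted p. With kallisto TPM 11 of the 15 calls were lost, among them those of Rpt3 (0.51, adjusted p = 0.359) and Rpt5 (0.87, adjusted p = 0.0686). Rpn11 (2.92, adjusted p = 2.56e-06), Rpn7 (1.74, adjusted p = 0.000112), Rpn9 (0.84, adjusted p = 0.0291) and Rpt3R (-1.88, adjusted p = 0.0165) were still called.

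Prosbeta2 was the core gene that was lower in SMARTseq2 (-0.66, SE 0.22, adjusted p = 0.0167), a call that was lost without the wild type embryo of cycle 14D (adjusted p = 0.0713). The calls of Prosalpha2 (adjusted p = 0.157), Rpn1 (0.0585) and Rpt6 (0.132) were lost without the same embryo, that of Prosbeta3 (0.055) without the zld embryo of cycle 14D, and that of Rpn10 in 9 of 17 fits. With the values rescaled by median-ratio size factors, 9 members were higher and 3 lower, with 31.2% and 24.1% of all genes. Rpt3R, the other lower gene (-2.17, SE 0.55, adjusted p = 0.00259), was high in the zld embryos, which make up 4 of the 6 TruSeq embryos. Without the zld embryo of cycle 14D its call was lost (adjusted p = 0.0633).

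Rpt3R, a paralog of the ATPase gene Rpt3 (FBgn0037742, chromosome 3R, 9754735 to 9756510), was the member that set the zld embryos apart. In the 7 zld embryos it was 27.1 FPKM at cycle 11, 45.6, 28.6 and 36.8 FPKM at cycle 13, 66.7 FPKM at cycle 14A, 46.6 FPKM at cycle 14B and 55.1 FPKM at cycle 14D. The 7 wild type embryos had 1.245, 2.24, 2.16, 1.77, 2.94, 4.98 and 2.95 FPKM from cycle 11 to 14E, so the groups did not overlap at any stage. The difference was 3.76 (SE 0.24, adjusted p = 8.45e-06, limma with stage as a term), and 3.62 to 3.88 when each embryo was left out in turn. It was 3.71 with kallisto TPM and 3.32 after median-ratio scaling. Rpt3 itself did not stand out, with 121 FPKM in zld and 129 FPKM in wild type at cycle 14D. The zld line and Canton-S differ in more than zld, and the wild type reads came from an earlier study. Wild type embryos were cut into 10 to 14 slices and zld embryos into 6 to 13. Which of these differences goes with Rpt3R, or with any other call between zld and wild type, cannot be told apart here.

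The zld comparison also called Rpn13 (1.08, SE 0.23, adjusted p = 0.00514), Rpn2, a scaffold of the base (1.10, SE 0.25, adjusted p = 0.0072), and Rpn5, a lid subunit (0.76, SE 0.19, adjusted p = 0.0114). Rpn13 in zld was 221 FPKM at cycle 11, 137, 74.2 and 88.6 at cycle 13, 69.3 at cycle 14A, 93.7 at cycle 14B and 110 at cycle 14D, above the wild type embryo of the same cycle each time. In all, 4 of 32 members were higher, where 30.5% of all genes were higher, and 0 were lower, where 4.45% of all genes were lower. At an unadjusted p under 0.05 the counts were 5 higher and 1 lower, with no share of all genes computed, so nothing is read from them. The median of all genes was 0.36. After median-ratio scaling, 1 member (Rpt3R) was higher, with 10.7% of all genes, and 16 were lower, with 16.3% of all genes, 9 of them core genes. Core genes called between zld and wild type thus depended on the scaling, and with kallisto TPM 10 members were higher and 0 lower. The share of all genes called with kallisto TPM was not computed.

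**Figure D4:**
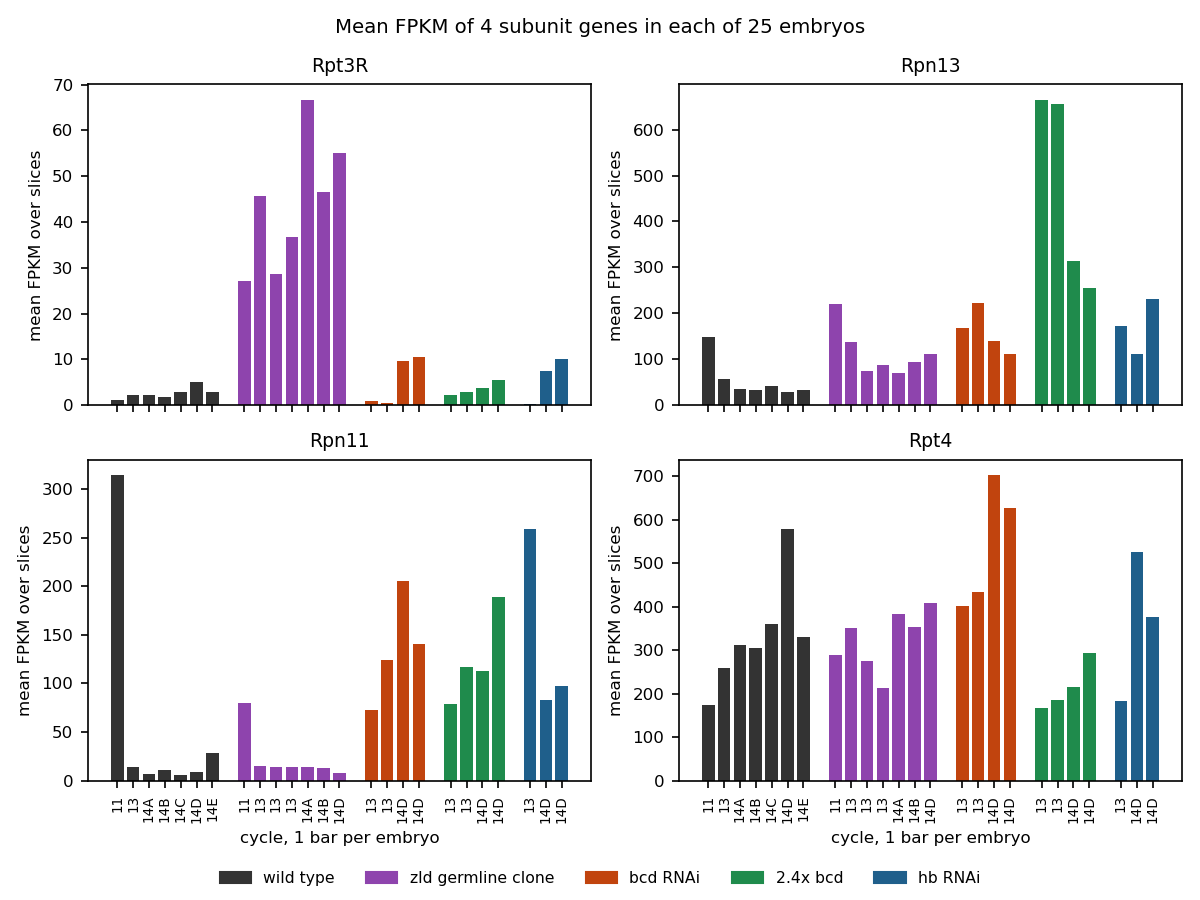
Mean FPKM over slices of Rpt3R, Rpn13, Rpn11 and Rpt4 in each of the 25 embryos, 1 bar per embryo, grouped by line and ordered by cycle, with a separate vertical axis from 0 for each gene. Rpt3R is high in all 7 zld embryos, Rpn13 in the 2.4x bcd embryos of cycle 13, and Rpn11 at cycle 11 in wild type (315 FPKM) and zld (80.3 FPKM) and in all SMARTseq2 embryos.

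The bcd RNAi and 2.4x bcd lines were compared in the SMARTseq2 fit. They differ in bcd, in their transgenes and in maternal age, and these cannot be told apart here. Here 5 of 33 members were higher in bcd RNAi, where 7.96% of all genes were higher, and 1 was lower, where 12.4% of all genes were lower. Rpn13 was the lower gene (-1.47, SE 0.29, adjusted p = 0.00622). It was 665 and 655 FPKM in 2.4x bcd at cycle 13 and 313 and 255 FPKM at cycle 14D, against 167, 223, 140 and 112 FPKM in bcd RNAi, without overlap. Rpt4 was the higher gene with the smallest adjusted p (1.32, SE 0.22, adjusted p = 0.00306), and its 4 bcd RNAi embryos (401 to 703 FPKM) lay above its 4 2.4x bcd embryos (167 to 293 FPKM).

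Prosalpha5 (0.90, SE 0.22, adjusted p = 0.0151), Prosalpha6 (0.76, SE 0.19, adjusted p = 0.0169), Prosbeta7 (0.63, SE 0.18, adjusted p = 0.0286) and Prosbeta1 (0.76, SE 0.23, adjusted p = 0.0375) were the other higher genes. Each of these 4 lost its call without replicate 2 of bcd RNAi at cycle 14D and without either 2.4x bcd embryo of cycle 13, and all but Prosalpha5 without further embryos, with adjusted p up to 0.132, and Prosbeta1 also with the replicate number as a block (adjusted p = 0.0543). With kallisto TPM, where the median of all genes moved to -0.69, no member was higher and 9 were lower. With rescaled TPM 2 were higher and 2 lower. The shares of all genes called with TPM were not computed for this comparison. Rpn13 and Rpt4 kept their calls in every fit with 1 embryo left out.

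The hb RNAi embryos were set against the mean of the 2 bcd lines. No member was called in either direction by limma, where 0.0865% of all genes were called higher and 0.0433% lower. At an unadjusted p under 0.05 the counts were 0 higher and 4 lower. The share of all genes at that threshold was not computed, so nothing is read from these counts. With kallisto TPM the called counts were also 0 and 0. The members had a median of -0.19 beside -0.16 for all genes.

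The 15 paralogs were close to absent. In Drosophila several of them are known from the testis, where they replace the standard subunit. Only 4 of the 15 paralogs reached 1 FPKM in any embryo and only Rpt3R reached 15 FPKM. In the SMARTseq2 lines 2 of them passed the filter on low values. Rpt3R there was 0.88 and 0.565 FPKM in bcd RNAi at cycle 13 and 9.63 and 10.6 FPKM at cycle 14D, 2.18 and 2.98 against 3.67 and 5.60 FPKM in 2.4x bcd, and 0.336 against 7.49 and 10.1 FPKM in hb RNAi (1.97, SE 0.35, adjusted p = 0.000326). Prosbeta2R2, a paralog of the trypsin-like subunit gene, was at most 0.217 FPKM in the 5 embryos of cycle 13 and 0.962 to 5.01 FPKM in the 6 of cycle 14D. It passed the filter only through the latter, so these values are given with no test. Within 1 slice Rpt3R could be much higher, with 55.9 FPKM in a slice of an hb RNAi embryo whose median slice had 7.96 FPKM.

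Along the axis most subunit mRNAs had mean profiles near flat, in a share like that of all genes. The distance of a profile from a flat one was taken as the earth mover's distance (EMD, 0 for a flat profile), with under 0.04 called uniform, for genes that reached 15 FPKM in a slice. Slices with no values were filled from their neighbours for this distance. Over the 22 embryos with at least 6 slices, 27 members were expressed in every embryo and 26 were uniform by their mean EMD, where 95.1% of all such genes were uniform. Rpn1, Rpn2, Rpn8 and Rpn11 did not reach 15 FPKM in every embryo and are not among the 27. Prosalpha4 was the flattest (mean EMD 0.0126), and Rpn7 the least flat (0.0414). Slices of 1 embryo varied by 9.74% (Prosalpha6) to 36.4% (Rpn1) as the median coefficient of variation, against 1.87% to 9.32% from counting alone.

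At wild type cycle 14D, Prosbeta5 ranged over 13 slices from 810 to 1332 FPKM with a median of 914 FPKM, and Rpn12 from 831 to 1313 FPKM. Rpn11 ranged from 0 to 11.5 FPKM. The share of uniform members was lower at other stages: 19 of 31 at wild type cycle 14B and 20 of 31 at cycle 14E, where the shares of all expressed genes were 59.99% and 56.3%. An EMD above 0.08, called patterned, was found for 6 members at cycle 14B and 5 at cycle 14E. The share of all expressed genes above 0.08 was not computed, so nothing is read from these counts. These embryos had values for 7 of 13 and 9 of 13 slices, and the rest were filled from neighbours.

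The anterior and posterior ends, each 1 of 3 equal parts of the length, were compared in the 7 wild type embryos. Each embryo is of another stage, and the stages stand as replicates. No member was called by limma in either direction, where 0.0156% of all genes were called higher at the anterior and 0% lower. At an unadjusted p under 0.05 the counts were 1 higher and 5 lower. The share of all genes at that threshold was not computed, so nothing is read from these counts. With kallisto TPM the called counts were again 0 and 0. The core genes had a median anterior minus posterior difference of -0.01 and lay between -0.09 and 0.02. The cap genes had a median of -0.23, from -0.50 to 0.52, beside -0.06 for all genes. Rpn1, Rpn7, Rpn8, Rpn9 and the proteolytic core gene Prosbeta5 had a negative difference in 7 of 7 embryos. The share of all genes with a negative difference in 7 of 7 was not computed, so nothing is read from this.

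The cap differences were largest at cycles 14B and 14E. The median over the 18 cap genes was -0.85 at cycle 14B and -0.45 at cycle 14E, and -0.15 to 0.09 at the other 5 stages. The cycle 14B embryo had values for 7 of 13 slices and its anterior end was 1 slice, and the cycle 14E embryo had 9 of 13 slices with 2 at the anterior end. Without the cycle 14B embryo the cap median over the wild type embryos was -0.14 in place of -0.23, and without the cycle 14E embryo it was -0.16. Markers of pole cells, the germ cells at the posterior end, were 6 of 6 detected, and their sum went the same way at those stages, -1.96 at cycle 14B and -1.76 at cycle 14E. It was also -2.87 at cycle 14C, where the cap median was -0.12, and -0.88 at cycle 14A, where the cap median was 0.09. Their part in the cap differences was not tested. Rpn11 went the other way, higher at the anterior in 5 of 7 embryos, with 1.58 at cycle 14C and 1.09 at cycle 14E at levels of 5.96 and 28.0 FPKM.

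With all 22 embryos of any line that had 6 or more slices, 4 members were lower at the anterior, where 3.67% of all genes were lower, and 0 higher, where 2.74% of all genes were higher. They were Rpt2 (-0.18, SE 0.04, adjusted p = 0.016), Rpn7 (-0.27, SE 0.07, adjusted p = 0.026), Rpn9 (-0.30, SE 0.08, adjusted p = 0.0309) and Rpt3 (-0.23, SE 0.07, adjusted p = 0.0477), all of the cap.

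**Figure D5:**
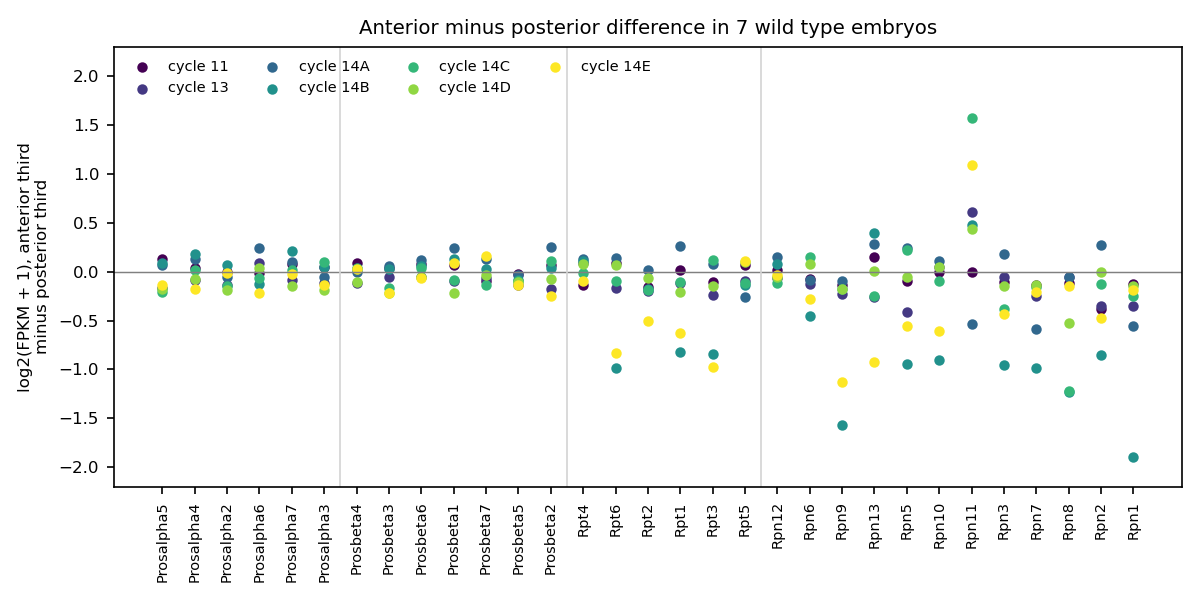
Anterior minus posterior difference of log2(FPKM + 1) for 31 standard subunit genes (horizontal axis) in the 7 wild type embryos, 1 point per embryo coloured by cycle. The 13 core genes on the left stay near 0, and the cap genes on the right reach down to -1.90 for Rpn1 at cycle 14B, where the anterior end is 1 slice, while Rpn11 reaches 1.58 at cycle 14C.

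The genes around the proteasome had mixed courses in the SMARTseq2 stage comparison, in which 36.2% of all genes were lower and 33.2% higher. The lists are short, and nothing particular to them is read from their counts. Of 5 genes for activators, inhibitors, assembly factors and bound enzymes, 3 were lower and 1 higher. Usp14, a deubiquitinase that binds Rpn1, fell by 1.57 (SE 0.22, adjusted p = 3.81e-05), whereas Uch-L5, the deubiquitinase that binds Rpn13, rose by 0.94 (SE 0.23, adjusted p = 0.00264). Of 7 shuttle factors and p97 genes 4 were lower, and of 6 genes for ubiquitin and its activation 3 were lower. Sem1, the small lid subunit under another symbol, fell by 2.07 (SE 0.47, adjusted p = 0.00164). Of 4 transcriptional regulators 2 were higher and 1 lower: cnc, the Drosophila relative of the factors that activate proteasome genes, fell by 2.18 (SE 0.53, adjusted p = 0.00269), and Keap1, its inhibitor, rose by 3.23 (SE 0.25, adjusted p = 2.07e-07).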

How the data were processed

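The authors sequenced mRNA of single slices and deposited FPKM per gene, made per the labels and methods with STAR 2.3.0.1 and Cufflinks 2.2.1 against the FlyBase annotation, and a second table from kallisto 0.42, taken as TPM, whose 30048 matched transcripts were summed to genes here. FPKM were deposited for 338 slices and TPM for 340. Gene coordinates are of release 6. Slice values were averaged per embryo, log2(FPKM + 1) was tested for genes with a mean of at least 1 FPKM (R 4.3.3, limma 3.58.1, empirical Bayes with a trend in level), and p-values were adjusted by Benjamini-Hochberg over all genes at 0.05. These differences understate changes of low genes. Slices of 1 embryo are not replicates. Each embryo is a separate animal, and p-values measure the spread between these embryos, which had values for different shares of their slices. Genes were named by rule: the proteolytic and ubiquitin-handling subunits, the highest and lowest of each group, and per comparison up to 4 called members of smallest p in each direction. Genes named beyond it (Rpt3 and Rpn8 by stage, and those in lists of calls) were chosen after their values were seen. Members and lists were chosen with earlier results of these data known. The zld libraries were made with an unstranded kit per the methods and SMARTseq2 does not mark strand, so overlapping genes on opposite strands cannot be told apart there, and 13 of the 32 standard genes share exon bases with another gene, each under 20% of its length. Depth was estimated from the FPKM steps, and the counting variation given covers counting error only. The fits were tested on simulated data. Alternatives were kallisto TPM, pseudocounts of 0.1 and 5, no filter, median-ratio scaling, medians over slices, other stages or ends, the replicate number as a block and each embryo left out; rescaled TPM was added after seeing the data.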

Additional observations from a re-analysis of the deposited data

Results flagged for a closer look

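Of 31 standard subunit genes examined for an embryo far from the other wild type embryos in the anterior minus posterior difference, 2 had one, where chance gives about 1 in 20. Rpn1 was at -1.90 in the cycle 14B embryo, with the other 6 between -0.55 and -0.13, but its anterior end rested on 1 slice. Rpt2 was at -0.50 in the cycle 14E embryo, with the others between -0.20 and 0.02. These are the shallowest wild type embryos, with medians of 401033 and 423761 fragments per slice, and the part of depth in these values was not tested.

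The change from cycle 13 to 14D differed between SMARTseq2 and TruSeq by limma's interaction test for Prosalpha3 (-1.70), Rpt1 (-1.60), Rpt3 (-1.53), Prosalpha7 (-1.26) and Prosbeta2R2 (1.59). Prosbeta2R2 passed the filter on low values only through its SMARTseq2 embryos of cycle 14D, so nothing is read from its difference. Kit, carrier, maternal age and line cannot be told apart in this difference.

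CG30382, the copy next to Prosalpha1 that is listed at 0 FPKM, had kallisto values from 262 TPM in the lowest embryo to 2624 TPM in the highest. The 2.4x bcd embryos held 1624 to 2624 TPM, and the embryos of the other lines 262 to 938 TPM.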

How the results depend on the processing

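Each wild type stage is 1 embryo, TruSeq and SMARTseq2 share no line, and wild type slices are the shallowest, so low cap genes are least precise there. Of 47 member calls, 27 were kept with every embryo left out in turn and 20 were lost at least once. Among 1139 values of single members under an alternative, 157 lost their call and 2 reversed. Leaving out embryos gave 3 to 4 members higher and 10 to 15 lower for stage in SMARTseq2, 1 to 7 and 1 to 2 for bcd RNAi minus 2.4x bcd, 0 and 0 to 2 for stage in TruSeq, 4 to 6 and 0 to 3 for zld, 10 to 15 and 1 to 3 for kit, and 0 to 2 and 1 to 5 for the interaction. It gave 0 and 0 for hb RNAi and for the axis.

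With kallisto TPM, stage in SMARTseq2 had 5 members higher and 2 lower, bcd RNAi minus 2.4x bcd 0 and 9, stage in TruSeq 0 lower, zld 10 higher, kit 4 and 1, and the interaction 0 and 0. Prosbeta1 (-0.087) and Prosbeta7 (-0.21) then reversed between bcd RNAi and 2.4x bcd, where the median of all genes was -0.69. With rescaled TPM, bcd RNAi minus 2.4x bcd had 2 and 2, zld 1 and 16, kit 8 and 5, and the interaction 0 higher. Median-ratio scaling of FPKM gave 1 and 16 for zld. The wider TruSeq contrast had 2 and 11. Medians over slices gave 2 lower for bcd RNAi minus 2.4x bcd. With wild type at cycle 14E, kit had 1 lower and the interaction 0 and 0. The interaction had 0 higher with pseudocounts of 0.1 and 5 and with medians over slices, and 2 lower without the filter. The axis had 4 lower with all lines. The cause of these changes was not tested. Shares of all genes were not computed for counts with an embryo left out or with kallisto TPM, save stage in SMARTseq2 with rescaled TPM. Nothing about the members beside other genes is read from those counts.

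Replicate numbers of the SMARTseq2 lines did not pair the embryos: of 10 pairs, 6 had a negative correlation of deviations and 3 one over 0.1, from -0.31 to 0.22. With the replicate number as a block, stage had 3 higher and 13 lower, bcd RNAi minus 2.4x bcd 4 and 1, and hb RNAi 0 and 0.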

Other observations

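Sem1, the small lid subunit outside the naming rule, ranged from 25.8 to 2750 FPKM (median 126) over the 25 embryos, with the highest value in the hb RNAi embryo of cycle 13, and was higher in SMARTseq2 than in TruSeq by 2.26 (SE 0.41, limma, adjusted p = 0.000164). Between zld and wild type, Ubi-p63E, a polyubiquitin gene, was higher by 2.94 (SE 0.44, adjusted p = 0.00162), as was TER94, the p97 segregase, by 1.21 (SE 0.22, adjusted p = 0.00313). Pomp, the assembly factor of the core, was lower by 0.76 (difference -0.76, SE 0.25, adjusted p = 0.0371), where the median of all genes was 0.36.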
